A study of Caenorhabditis elegans with 2 samples.

Results

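The HSP70 chaperone family genes described here are 7 of 19985 protein-coding genes of the nematode Caenorhabditis elegans: F44E5.4, F44E5.5, hsp-70, hsp-1, hsp-3, hsp-4 and hsp-6. They were chosen by measured values, with the strong promoter peak of F44E5.4 and F44E5.5 and the weaker peaks of the others already known, so their promoter signals are given as a description with no test. DNA bound by a tagged DAF-19, an RFX transcription factor known for binding the X-box element of ciliary genes, was recovered with an antibody against GFP and sequenced (ChIP-seq). There was 1 group, whole L4 larvae aged 48 hours, with 2 biological replicates. All animals came from 1 strain, OP794, with the transgene wgIs794, which holds daf-19 fused to TY1, EGFP and 3xFLAG together with unc-119(+), in the unc-119 (tm4063) mutant background. The genotype lists no daf-19 mutation. The larvae had been synchronised by bleaching and L1 starvation, and chromatin had been sonicated to 200 to 800 bp. The labels name no untagged or heat-shocked group, and the data of the control experiment they name were not analysed here. Whole animals were used, so a peak cannot be assigned to a tissue.

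HSP70 proteins are ATP-driven chaperones that bind exposed hydrophobic stretches of unfolded proteins and release them for folding, with J-domain proteins and nucleotide exchange factors as helpers. In the nematode F44E5.4, F44E5.5 and hsp-70 are heat-inducible cytosolic forms, hsp-1 is the constitutive cytosolic form, hsp-3 and hsp-4 code for the BiP chaperones of the endoplasmic reticulum (ER) and hsp-6 for the mitochondrial HSP70. Heat induction acts through the heat shock factor HSF-1, which binds arrays of the unit GAA and its complement TTC in alternation, and the ER and mitochondrial forms are known as reporters of the unfolded protein responses of those compartments.

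The strongest promoter peak of the family lay between the divergent heat-inducible genes. F44E5.4 (WBGene00009691, II:11757107-11759311, minus strand) and F44E5.5 (WBGene00009692, II:11759662-11761861, plus strand) have 350 bp between them and share the peak II:11759335-11759564 on assembly ce11 (WBcel235). Its summit lay 158 bp upstream of the F44E5.4 start and 193 bp upstream of the F44E5.5 start, in intergenic sequence. The peak was 230 bp wide. Its sequence, from the RefSeq WBcel235 genome on the plus strand, is shown because it holds 3 runs of heat shock units. The capitals mark runs of 3 or more units GAA and TTC in alternation, each unit starting 5 bases after the one before.
F44E5.4 and F44E5.5 peak: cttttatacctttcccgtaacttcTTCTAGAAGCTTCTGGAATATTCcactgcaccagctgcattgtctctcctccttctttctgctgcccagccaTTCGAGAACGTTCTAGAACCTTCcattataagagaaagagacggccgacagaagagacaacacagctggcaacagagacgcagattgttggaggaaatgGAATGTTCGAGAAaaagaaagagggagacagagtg

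The runs in the peak held 5, 5 and 3 units, 13 in all. A further run of 5 units lay outside the peak, 58 bp from the F44E5.5 start, which gave the region between the genes 4 runs and 18 units. The run nearest to the summit had its centre 27 bp from it. The centres of the others lay 67, 99 and 124 bp away.

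The shared peak had a signal of 710.8 in the series-wide list made from both replicates, 402.9 in replicate 1 and 318.4 in replicate 2. The signal is the authors' own value per peak, and its scaling is not stated, so it is ranked and divided only within a list. By signal the peak ranked 2 of 117986 ranked peaks in the series-wide list, 2 of 112641 in replicate 1 and 3 of 110961 in replicate 2. The irreproducible discovery rate (IDR) tells how well a peak is found again in another replicate or in another part of the same sample, and its −log10 value was 5 in each list, the highest value these lists hold. The summit in replicate 1 lay 166 bp upstream of the F44E5.4 start and that in replicate 2 lay 158 bp upstream. High rank and position were thus alike in both replicates. No file gives read counts, so the depth behind these values is unknown and no counting interval can be given.

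A peak is called thresholded below where its −log10 IDR was 2 or more, an IDR of 0.01 or less. A promoter window runs from 1000 bp upstream to 200 bp downstream of any annotated transcript start. In the series-wide list 3 of the 7 genes, F44E5.4, F44E5.5 and hsp-1, had a thresholded peak in the promoter window, where 2.48% of all protein-coding genes did. The same 3 genes had one in replicate 1, against 1.08% of all genes, and in replicate 2, against 0.976%. Nothing is read from these counts, because promoter signal chose the genes and F44E5.4 and F44E5.5 share 1 peak. In the series-wide list the genes nearest to the threshold were hsp-1 above it, with a −log10 IDR of 3.64, and hsp-3 below it, with 1.04.

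**Figure D1:**
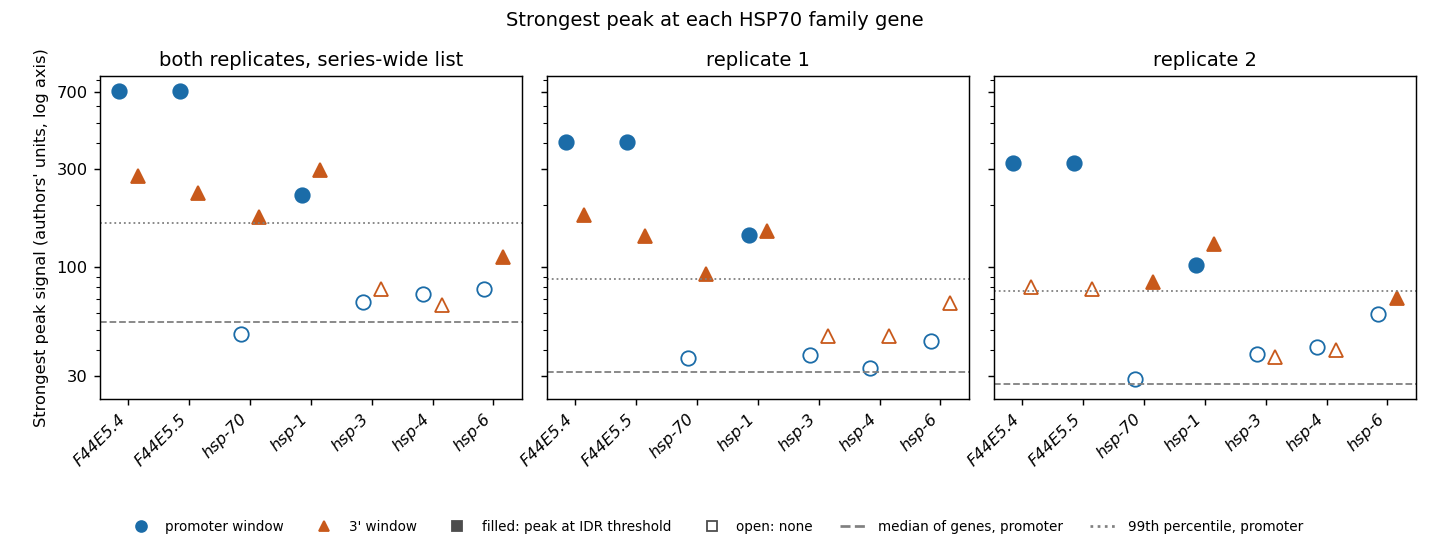
Strongest peak signal (log axis, authors' units) in the promoter window (circles) and the 3' window (triangles) of each gene, in the series-wide list and in each replicate. Filled marks have a peak at the IDR threshold, and the dashed and dotted lines are the median and 99th percentile of the strongest promoter signal over the genes with a ranked peak. The shared circle of F44E5.4 and F44E5.5 stands at 710.8, 402.9 and 318.4, and hsp-1 is the other gene with filled circles.

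The remaining heat-inducible gene, hsp-70 (WBGene00002026, I:9320325-9322519, minus strand), had no thresholded promoter peak. It lies inside a gene on the opposite strand, uggt-2 (I:9317713-9327279), which codes for a UDP-glucose:glycoprotein glucosyltransferase homolog. Its strongest promoter peak, 613 bp upstream, had a signal of 47.8 in the series-wide list, with 36.6 in replicate 1 and 28.9 in replicate 2. Over the 13937 genes with any ranked promoter peak the median of the strongest signal was 54.3 and the 99th percentile 163.9, so hsp-70 was below the median in the series-wide list. In replicate 1 the hsp-70 value lay above the median of 31.3, and in replicate 2 above the median of 27.3. The signal of the divergent pair was 14.9 times that of hsp-70 in the series-wide list, 11.0 times in replicate 1 and 11.0 times in replicate 2.

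The constitutive gene hsp-1 (WBGene00002005, IV:17278959-17281330, plus strand) had the next strongest promoter peak of the family. The peak IV:17278366-17278745 had its summit 403 bp upstream of the start and a signal of 224.9, rank 97 in the series-wide list. In replicate 1 the signal was 143.4, with a rank of 55 and a −log10 IDR of 3.48, and in replicate 2 it was 102.9, with a rank of 110 and a −log10 IDR of 2.79. Of all protein-coding genes 99.74% had no stronger promoter peak in the series-wide list. The summit also lay 143 bp after the start of an annotated noncoding RNA gene, F26D10.23, and whether the peak belongs to that gene or to hsp-1 cannot be told apart. The pair's signal was 3.16 times that of hsp-1 in the series-wide list, 2.81 times in replicate 1 and 3.09 times in replicate 2. A weaker peak, with a signal of 128.5, lay 105 bp after the hsp-1 start.

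The ER chaperone genes were not marked by a thresholded promoter peak in any of these lists. For hsp-3 (WBGene00002007, X:6089028-6092124, minus strand) the strongest promoter signal was 68.0 in the series-wide list, 37.6 in replicate 1 and 38.1 in replicate 2. The series-wide summit lay 410 bp upstream of its outermost start. The strongest replicate summits lay 907 bp and 331 bp upstream. Each list also held a peak of lower signal near the other place. It lay 904 bp upstream in the series-wide list, with 65.4, and 393 bp upstream in replicate 1, with 37.4. In replicate 2 it lay 920 bp upstream, with 28.8. For hsp-4 (WBGene00002008, II:7350112-7352645, minus strand) the values were 74.3, 32.7 and 41.2. Its summit lay inside the gene, 525 bp after the outermost start and 791 bp upstream of an internal start. With the outermost start alone, the strongest hsp-4 signal was 62.4 in the series-wide list, 30.5 in replicate 1 and 28.5 in replicate 2. The pair's signal was 10.5 times that of hsp-3 and 9.56 times that of hsp-4 in the series-wide list, 10.7 and 12.32 times in replicate 1, and 8.36 and 7.73 times in replicate 2.

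The mitochondrial HSP70 gene hsp-6 (WBGene00002010, V:4824124-4826760, minus strand) also had no thresholded promoter peak. Its strongest signal was 78.6 in the series-wide list, 44.02 in replicate 1 and 59.4 in replicate 2. The summits lay 419 bp upstream in the series-wide list and 424 bp upstream in replicate 2, and 59 bp after the start in replicate 1. The 2 upstream summits lay on the noncoding RNA genes C37H5.15 and C37H5.16. A protein-coding gene on the opposite strand, C37H5.5, starts close by at V:4827360. Which of these genes the upstream peak belongs to cannot be told apart. The −log10 IDR was 0.27, 0.52 and 1.63 in these lists. In replicate 1 the upstream peak, 411 bp before the start, had a signal of 15.6. The peak after the start had 71.9 in the series-wide list, at 107 bp, and 29.5 in replicate 2, at 89 bp. The pair's signal was 9.04, 9.15 and 5.36 times that of hsp-6, where the replicate 1 ratio rests on the peak after the start. Below the pair and hsp-1, the order of the other genes was not the same in every list: hsp-6, hsp-4, hsp-3, hsp-70 in the series-wide list and in replicate 2, but hsp-6, hsp-3, hsp-70, hsp-4 in replicate 1. With 1 value per replicate and unknown scaling, neighbours in this order cannot be separated.

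Peaks past the gene ends were examined in a mirrored window, from 200 bp inside to 1000 bp after a transcript end, a window chosen after the peaks had been seen. In the series-wide list 5 of the 7 genes had a thresholded peak there, where 2.06% of all protein-coding genes did. In replicate 1 it was 4 of 7 against 0.821%, and in replicate 2 it was 3 of 7 against 0.776%. A thresholded peak in both the promoter window and the 3' window was found at 3 of the 7, the pair and hsp-1, and at 0.265% of all genes in the series-wide list. Nothing is read from this count, since the promoter peak chose the genes, and in replicate 2 hsp-1 alone had both. The 3' windows of F44E5.4 and F44E5.5 belong to 1 locus and are not independent.

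The 3' peak of F44E5.4 had its summit 123 bp after the gene, with a signal of 277.7 and rank 45 in the series-wide list. The values of the replicates were 180.0 and 80.4, the latter in replicate 2, where its −log10 IDR of 1.37 was below the threshold. The 3' peak of F44E5.5 had its summit 155 bp after the gene, with a signal of 229.4, rank 90, and 141.6 in replicate 1 and 78.8 in replicate 2. In replicate 2 it was below the threshold too, with a −log10 IDR of 1.09. The peaks at the outer ends of both genes were thus thresholded in the series-wide list and replicate 1, and in all lists they were weaker than the peak between the starts. The F44E5.4 summit lay 199 bp after the start of a noncoding RNA gene, F44E5.16, and an annotated pseudogene, WBGene00009690, reaches into the 3' window of F44E5.5.

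**Figure D2:**
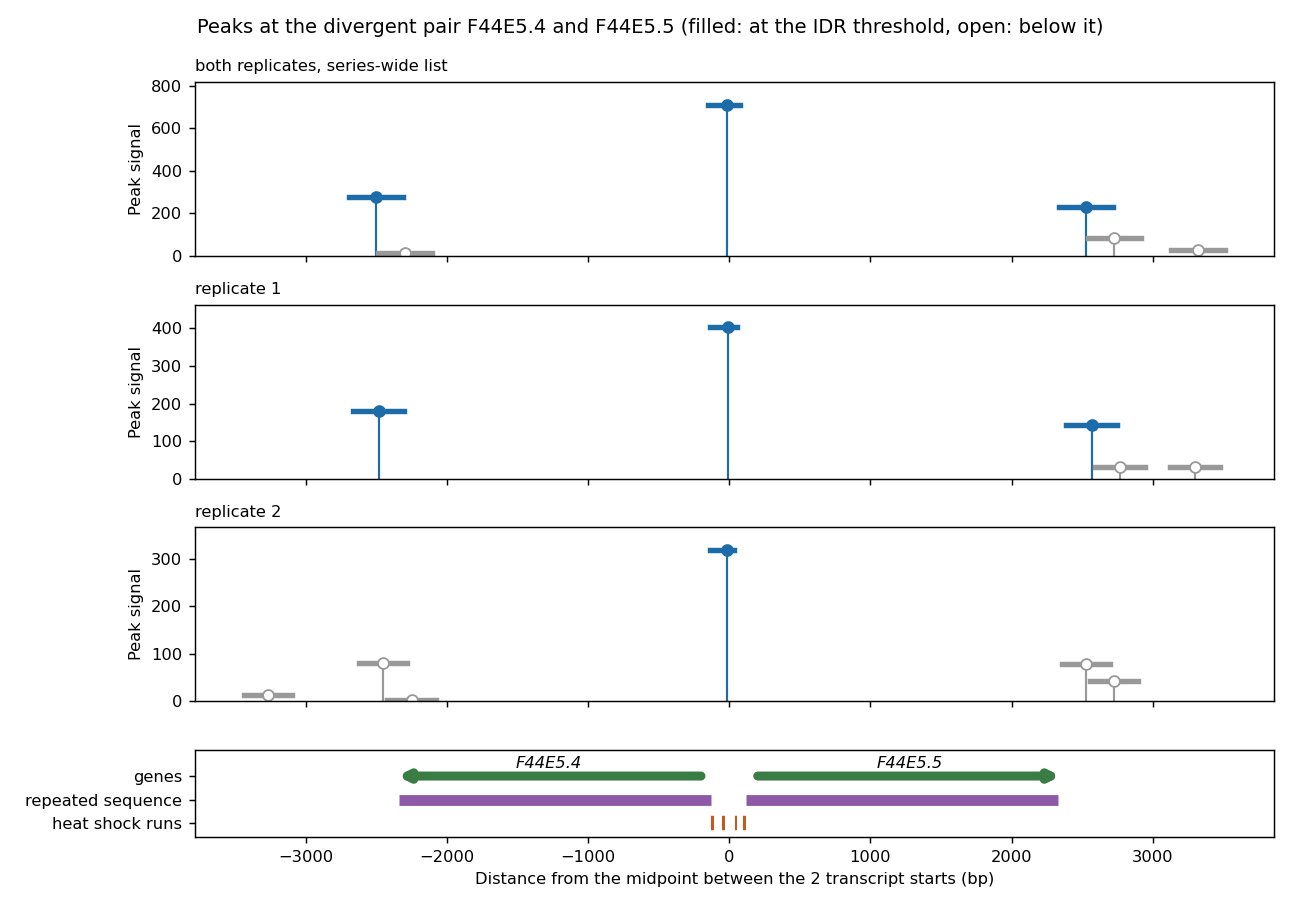
Peak signal (authors' units) against distance from the midpoint between the F44E5.4 and F44E5.5 starts, for the series-wide list and each replicate, with horizontal bars for the peak's extent. The lowest panel shows the genes, the repeated sequence in which no stretch of 50 bases occurs once in the genome, and the runs of heat shock units. The 3 thresholded peaks of the series-wide list flank the repeated blocks and do not have their summits in them.

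F44E5.4 and F44E5.5 are inverted copies. Their annotated sequences of 2205 and 2200 bp had 2193 identical bases and 2 mismatches when aligned, with an unbroken identical stretch of 2155 bases. The proteins translated from the annotation, each of 645 residues, were identical. In the F44E5.4 gene 1.84% of the stretches of 36 bases occurred once in the genome, and in F44E5.5 2.08%. In the peak between the starts 96.4% occurred once, and in each 3' peak 97.4% did. With stretches of 50 bases, all in the peaks occurred once. Sequence that is repeated covered 2 blocks of 2209 bp, and the summits lay outside them, by 114 bp and 139 bp for the peak between the starts, 163 bp for the 3' peak of F44E5.4 and 200 bp for that of F44E5.5. The series-wide list placed 1 ranked peak inside F44E5.4, with a signal of 16.07, and none inside F44E5.5. How reads that match both copies were treated is not given in the sources used here, and its part in the lack of peaks inside these genes was not tested.

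At hsp-1 the 3' peak was the stronger of its peaks. It had its summit 124 bp after the gene, a signal of 296.6 and rank 37 in the series-wide list, with 150.2 in replicate 1 and 129.95 in replicate 2, and it was thresholded in each. The neighbouring gene nra-1 ends there on the opposite strand, so the peak lay between convergent gene ends. Inside hsp-1 the series-wide list held 3 thresholded peaks of 5 ranked. Their signals were 128.5, 124.6 and 85.0, and the one of 124.6 lay on the snoRNA gene F26D10.24 in the hsp-1 gene. Replicate 1 had none of the 5 ranked peaks in hsp-1 past the threshold. Replicate 2 had 3, at 79, 1146 and 1346 bp after the start, with signals of 75.6, 66.4 and 24.75. The peaks at 1146 and 1346 bp overlapped. The peak of 85.0 lay 1865 bp after the start, and the replicate 2 peak at 1839 bp had a −log10 IDR of 1.51, below the threshold.

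The 3' peak of hsp-70 had a signal of 175.5 and rank 200 in the series-wide list, and 92.6 and 85.1 in replicates 1 and 2, where its summit lay 243 and 196 bp after the gene. It was thresholded in each list. It lay between a pair of tRNA genes, 54 bp from the start of WBGene00013918 and 88 bp from that of WBGene00012377. When summits at 200 bp or less from a small RNA gene (tRNA, rRNA, snRNA or snoRNA) were left out, 4 of the 7 genes had a thresholded 3' peak. Inside hsp-70 replicate 2 had 1 thresholded peak, with a signal of 5.85, and the other lists had none. Its summit lay 9 bp inside the gene end and 85 bp from WBGene00012377, and it overlapped the 3' peak. The 3' peak of hsp-6 had a signal of 111.9, rank 778, with its summit 305 bp after the gene and 396 bp upstream of adss-1, an adenylosuccinate synthetase gene, in whose promoter window it also lay. In replicate 2 the strongest signal in the hsp-6 3' window was 71.2, 265 bp after the gene, at a −log10 IDR of 2. In replicate 1 it was 67.6, below the threshold, with its summit at another place, 30 bp after the gene. Replicate 1 held no other ranked peak in the 1000 bp after the gene. The series-wide list also held a peak 26 bp after the gene, with 96.9, below the threshold. The ER genes had no thresholded 3' peak, with 78.8 for hsp-3 and 65.8 for hsp-4 in the series-wide list.

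**Figure D3:**
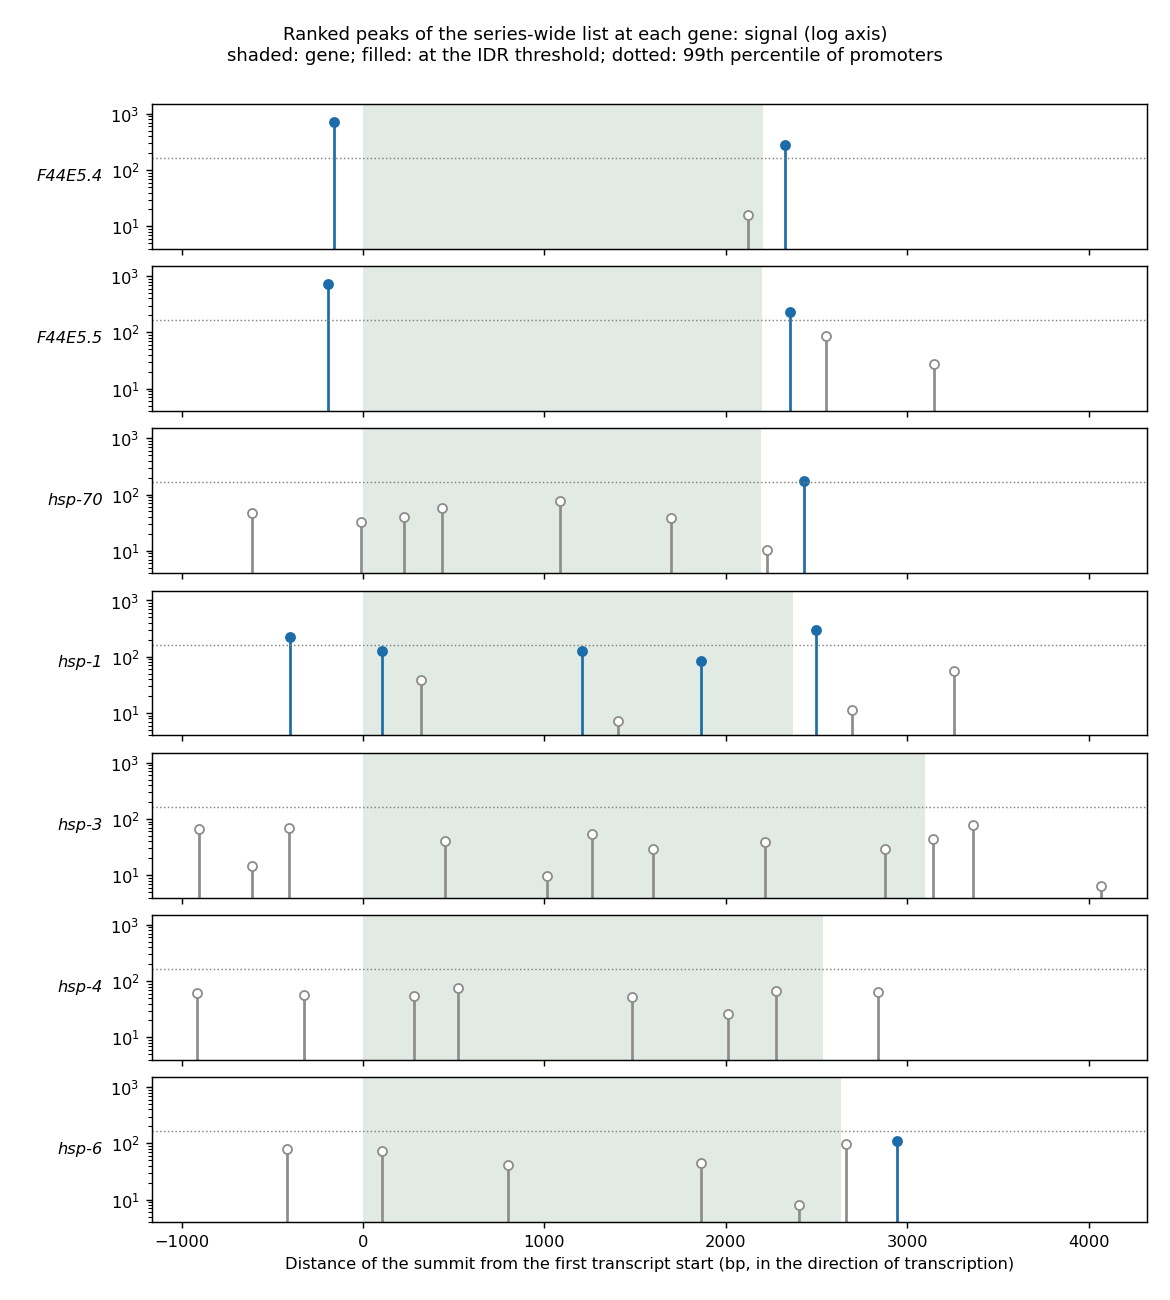
Signal (log axis, authors' units) of every ranked peak of the series-wide list near each gene, against the distance of its summit from the outermost transcript start, with the gene shaded. Filled marks are at the IDR threshold and the dotted line is the 99th percentile of promoter signals. hsp-3 and hsp-4 have open marks only, hsp-70 and hsp-6 a filled mark past the gene, and hsp-1 5 filled marks.

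The letters of the promoters were compared over 300 bases, from 250 bases before to 50 after the outermost start, on both strands. A run of 3 or more heat shock units was in the promoters of F44E5.4, F44E5.5, hsp-70 and hsp-1 and in none of hsp-3, hsp-4 and hsp-6, while 1.97% of the 19985 promoters of protein-coding genes held one. The runs of the pair reached 5 units in each promoter, a length held by 0.055% of all promoters. F44E5.4 and F44E5.5 had 3 runs and 13 units each, counted in overlapping windows. Those of hsp-70 and hsp-1 had 1 run of 3 units, starting 73 bp and 144 bp upstream of the start. At the hsp-70 and hsp-1 summits no run lay within 100 bp, and at the pair's summit 3 runs with 11 units did. The hsp-6 summit, upstream of the 300 base promoter, had 1 run of 3 units within 200 bp and none within 100 bp. Of all 996 thresholded summits of the series-wide list 1.31% had a run of 3 or more units within 100 bp, and 2.21% within 200 bp. A match says only that these letters are there.

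GAANNTTC, of which every run holds at least 1, was also found outside runs, as in hsp-4. It was in the promoters of the pair 5 times each, of hsp-70 2 times and of hsp-1 and hsp-4 once each, and in 18.5% of all promoters. TTCNNGAA, which overlaps GAANNTTC in every run, was in 18.9%. TATAAA was in the promoters of F44E5.4, F44E5.5, hsp-70 and hsp-3, starting 31, 41, 45 and 171 bp upstream, and in 38.0% of all. TGACGTG, the core of an element through which the ER unfolded protein response is known to act in mammals, was in the promoters of hsp-3 and hsp-4 and in 2.93% of all.

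The stretches with these matches are shown, from the RefSeq WBcel235 genome in the direction of transcription, to set the heat shock run of hsp-1 and the TGACGTG of the ER genes beside each other. They are IV:17278785-17278857 on the plus strand, and X:6092220-6092286 and II:7352692-7352758 on the minus strand. The capitals mark the run in hsp-1 and the TGACGTG or its complement in hsp-3 and hsp-4. The sequence at the hsp-1 summit, IV:17278506-17278606 on the plus strand, is in lower case throughout, since no GAANNTTC lay in it.
hsp-1 promoter: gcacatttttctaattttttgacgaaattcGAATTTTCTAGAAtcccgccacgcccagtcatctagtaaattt
hsp-3 promoter: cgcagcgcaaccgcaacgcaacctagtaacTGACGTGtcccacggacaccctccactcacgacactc
hsp-4 promoter: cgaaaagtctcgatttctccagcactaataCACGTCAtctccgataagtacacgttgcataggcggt
hsp-1 summit: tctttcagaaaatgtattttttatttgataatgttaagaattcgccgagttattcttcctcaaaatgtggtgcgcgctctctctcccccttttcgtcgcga

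**Figure D4:**
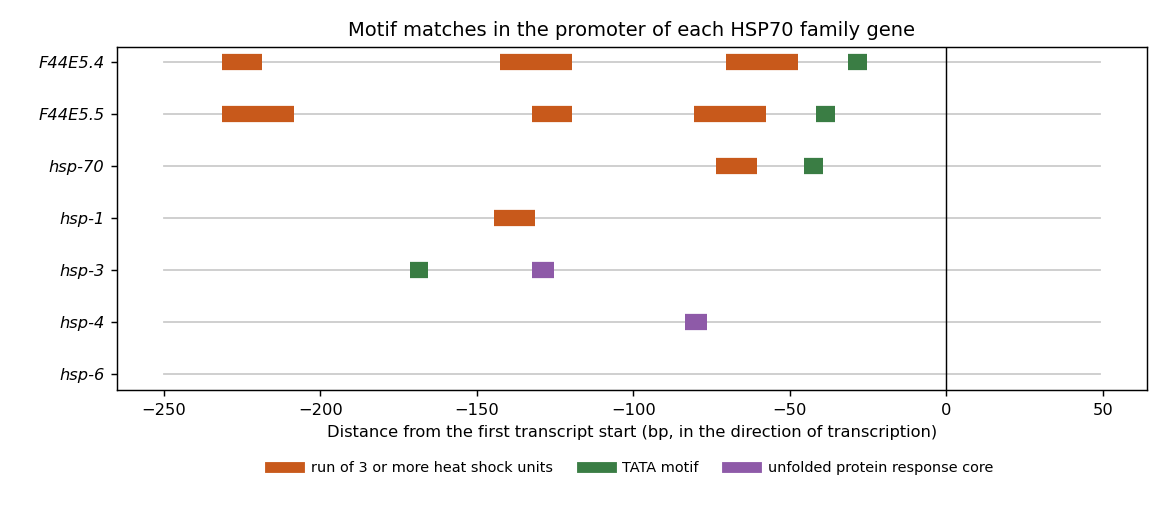
Position of motif matches (bp from the outermost transcript start, in the direction of transcription) in the 300 base promoter of each gene. The heat shock runs stand in the rows of F44E5.4, F44E5.5, hsp-70 and hsp-1, and the unfolded protein response core in those of hsp-3 and hsp-4.

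The identity of the proteins, translated from the annotation, was also compared. The hsp-70 protein of 643 residues was 87.6% identical to that of F44E5.4, hsp-1 of 640 residues 70.9%, hsp-4 of 657 residues 58.9%, hsp-3 of 661 residues 58.2% and hsp-6 of 657 residues 49.8%. The ER proteins were 85.5% identical to each other and end in an ER retention signal. The gene with the protein closest to the pair, hsp-70, had the lowest promoter signal of the family in the series-wide list, and hsp-1, the next closest, had the highest outside the pair. In replicate 1 the lowest was hsp-4, with 32.7 beside 36.6 for hsp-70.

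Beyond the family, 76 other chaperone and stress response genes were examined in 8 lists. In the series-wide list 9 of the 76 (11.8%) had a thresholded promoter peak, beside the 2.48% of all protein-coding genes, and it was 4 in replicate 1, beside 1.08%, and 6 in replicate 2, beside 0.976%. Genes that share a peak are counted each. Nothing is read from these counts or those of each list, because the gene lists were chosen with earlier results of these data known. The chaperonin list had 3 of 10. These were cct-8, a subunit gene of the cytosolic chaperonin, with a series-wide signal of 230.6 (replicate 1 138.1, replicate 2 87.6), and hsp-60 and Y22D7AL.10, which share a peak of 222.1 (104.7 and 122.2). These are the genes of the mitochondrial chaperonin and its co-chaperonin, which act together with the mitochondrial HSP70. The 3 genes were thresholded in each replicate, and in the series-wide list their signals were close to the 224.9 of hsp-1. The cct-8 peak also lay in the promoter window of Y55F3AR.2, and which gene it belongs to cannot be told apart.

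The ER list had 3 of 11 genes with a thresholded promoter peak in the series-wide list. These were xbp-1, a transcription factor gene of the ER unfolded protein response, with a signal of 121.2, its sensor ire-1 with 104.2, and pdi-3, a protein disulfide isomerase gene, with 81.9. Of them xbp-1 was thresholded in replicate 2, with 78.3, and none in replicate 1. The pdi-3 peak also lay in the promoter windows of VF15C11L.1, VF15C11L.2 and ubql-1, and which gene it belongs to cannot be told apart. The mitochondrial list had 2 of 7. These were clpp-1, a mitochondrial protease gene, with 122.9, and atfs-1, the transcription factor gene of the mitochondrial unfolded protein response, with 109.5, and neither was thresholded in a replicate alone. The clpp-1 peak also lay in the promoter windows of ZK970.11 and mdt-22, with the same limit. Other regulators of these lists, pek-1, atf-6, dve-1 and ubl-5, had no thresholded promoter peak in the series-wide list.

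Among 15 J-domain, nucleotide exchange and other co-chaperone genes, C34C12.8, a GrpE-type nucleotide exchange factor gene, was the one thresholded, with 156.0 in the series-wide list. No gene was thresholded in the series-wide list among 8 HSP90 and co-chaperone genes, 5 other HSP70 and HSP110 genes, 16 small heat shock protein genes and 4 heat shock factor and regulator genes. Of these hsp-90 was thresholded in replicate 1, with 82.5, and hsp-110 in replicate 2, with 66.0. The heat shock factor gene hsf-1 had a strongest promoter signal of 46.8. Of the 16 small heat shock protein genes, 11 had a ranked promoter peak of any strength, as did 13937 of all 19985 protein-coding genes. Of the heat-inducible hsp-16 genes, hsp-16.11 had the highest series-wide signal of the small heat shock protein genes, with 82.8. That summit lay 925 bp upstream and its −log10 IDR was 0.27. The strongest hsp-16.11 signal was 52.3 in replicate 1 and 11.04 in replicate 2. The genes hsp-16.1, hsp-16.2, hsp-16.41, hsp-16.48 and hsp-16.49 had no ranked promoter peak. Whether their sequence occurs once in the genome was not measured.

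**Figure D5:**
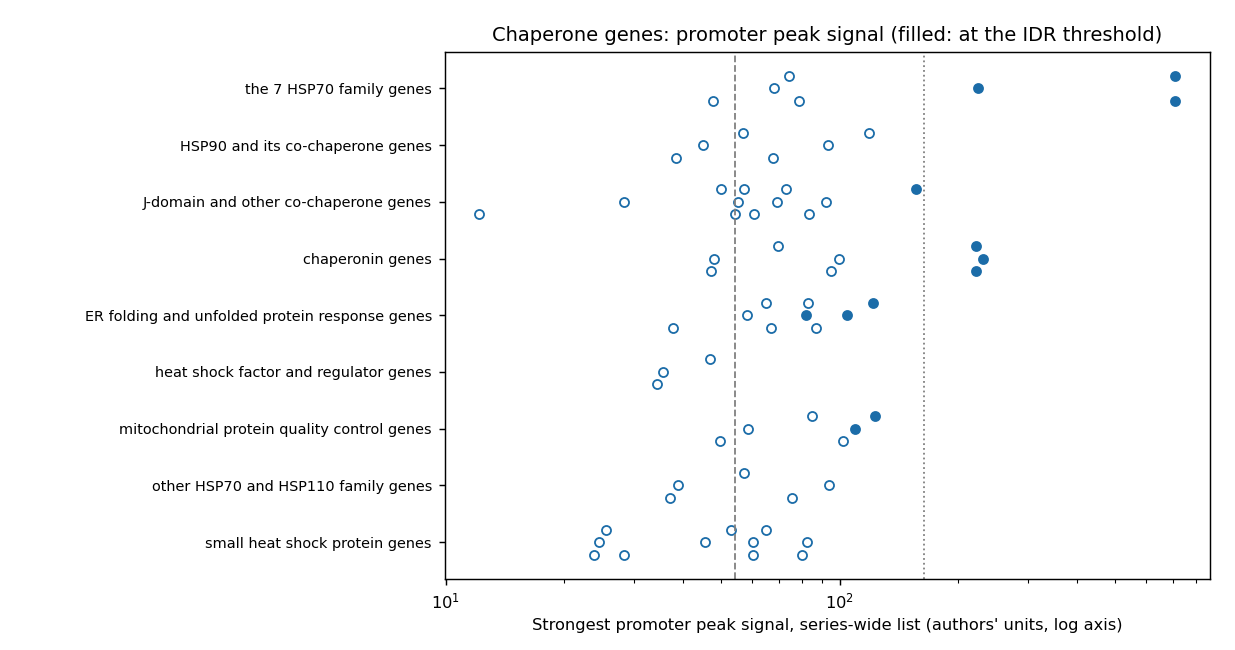
Strongest promoter signal in the series-wide list (log axis, authors' units) of each HSP70 family gene and of the genes of 8 chaperone lists that had a ranked promoter peak, with filled marks at the IDR threshold. The dashed and dotted lines are the median and 99th percentile over genes with a ranked peak. Next to the pair at 710.8, the rightmost marks are chaperonin genes at 222.1 and 230.6 and hsp-1 at 224.9.

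The genes whose promoter signals over the 3 lists were most like those of F44E5.4, apart from F44E5.5 and by distance of log2 signal over 13292 genes with a value in each list, were rpl-3, tasp-1 and K01G5.10. The ribosomal protein gene rpl-3 had 781.7 in the series-wide list, 439.6 in replicate 1 and 340.5 in replicate 2, a distance of 0.21, and its peak ranks directly above that of the pair. tasp-1 and K01G5.10 share a peak of 507.8, 253.1 and 260.7, a distance of 0.88. The next promoter peak below the pair by signal was that shared by rpl-20 and Y17G9B.5, with 538.9, 233.8 and 304.8.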

How the data were processed

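The files analysed were 8 peak lists on assembly ce11. Per the deposited file descriptions, a ranked and a thresholded list came from each replicate's alignments and a control, and 2 ranked lists with their thresholded lists from both replicates together. No aligner, peak caller, read filter or scaling is given in the sources used here. Peak signal values and −log10 IDR values were used as deposited by the authors, and the peaks of every thresholded list were checked to be those ranked peaks whose −log10 IDR is 2 or more (996 of 117986 in the series-wide list used, 408 of 112641 in replicate 1 and 394 of 110961 in replicate 2). The last 8 columns, which have no names, were left out. Read depth is unknown, and with 1 group and 2 replicates, which nothing says came from separate cultures, no test was made.

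Summits were assigned to Ensembl release 115 genes, and sequences were read from the RefSeq WBcel235 genome with Python 3.11.15, pandas 2.3.3 and Biopython 1.88 (protein alignment with BLOSUM62). The window assignment and the search for heat shock runs were tested on simulated data. The members and gene lists were chosen with earlier results of these data known. Of 79 companion names 76 were found. Named companions were, by rule, up to 3 genes per list with the highest signal among those thresholded in the series-wide list; hsp-90, hsp-110, hsf-1, pek-1, atf-6, dve-1, ubl-5 and the hsp-16 genes were named after their values were seen. The 3' window, the counts of repeated stretches and the count without small RNA genes were added after seeing the data. Alternatives were other windows, starts, lists, thresholds, overlap rules and each replicate alone. The X-box search of the promoters and 1 promoter sequence are not reported here.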

Additional observations from a re-analysis of the deposited data

How the results depend on the processing

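The count of 3 of 7 genes with a thresholded promoter peak was the same under all 9 alternatives run: windows of 500 to 100 bp and 2000 to 500 bp, the outermost start alone, the other series-wide list, each replicate alone, any overlap of the peak, and a −log10 IDR of 3 or 1.3. The rank of the peak between F44E5.4 and F44E5.5 was 2 to 3 with a replicate left out and 2 otherwise. Its signal was 2.81 to 3.09 times that of hsp-1 with a replicate left out and 3.16 times otherwise. The companion count of 9 was 4 to 6 with a replicate left out, 3 at a −log10 IDR of 3 or more and 16 at 1.3 or more. It was 6 with the window of 500 to 100 bp, 12 with that of 2000 to 500 bp and 11 with any overlap. With the other series-wide list it was 8, and with the outermost start alone also 8. The 3' count of 5 was 3 to 4 with a replicate left out and 4 at a −log10 IDR of 3 or more. Without summits near a small RNA gene it was 4. The 11 heat shock units within 100 bp of the pair's summit were 5 within 50 bp and 18 within 200 bp. The rank of 97 for hsp-1 was 55 to 110 with a replicate left out. The cause of these shifts was not tested. No paired analysis was possible because there is 1 group and no result comes from a test. Signals rest on 2 replicates of unknown depth, so values near each other cannot be ordered.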

Other observations

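Promoter peaks were also counted at genes with long runs of heat shock units. Of the 11 protein-coding genes with a run of 5 or more units in the 300 base promoter, F44E5.4 and F44E5.5 had a thresholded promoter peak in the series-wide list and the other 9 had none. Nothing is read from none among 9, because only 2.48% of all protein-coding genes had one. Whether such runs bear on a peak was not tested. Among these 9, hpo-2 had a ranked promoter peak in the series-wide list, with a signal of 51.7, and the rest had no ranked peak in the promoter window. Of all 19985 protein-coding genes 13937 had a ranked promoter peak. Of the 30 genes with a run of 4 or more units that are not in the HSP70 family, 1 had a thresholded promoter peak, and of the 389 with 3 or more units 13 did, where 2.44% of the genes without a run did. Some of these promoters hold many more units than the pair, such as C53C11.4 with 23 and ZC262.7 with 30, and whether their sequence occurs once in the genome was not measured.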
